A study of Mus musculus with 6 samples.

Results

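Genes of the plasma cell secretory program were compared between spleens of NOD.B10 females that model primary Sjögren's syndrome (pSS) and spleens of C57BL/10 (BL/10) females, the healthy control strain. The 45 genes were given as a list that covers regulators of the plasma cell, chaperones and folding enzymes of the endoplasmic reticulum (ER), the machinery that clears misfolded proteins from it, and the channel through which new proteins enter it. All 45 were found among the 47729 genes of the deposited count table, and all 45 passed the filter on low counts. The table holds RNA-seq read counts of whole spleens from 3 NOD.B10 (NOD.B10Sn-H2b/J) and 3 BL/10 (C57BL10/SnJ) mice, without treatment, and both strains carry the H2b haplotype. The labels give an age of 26 weeks for the 3 NOD.B10 libraries and for BL/10 replicate 1, and 36 weeks for BL/10 replicates 2 and 3, although the design text describes age-matched controls. The replicates are labelled as biological, and p-values measure the spread between these libraries.

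Plasma cells are the antibody-secreting descendants of B cells. Their ER is expanded under the control of the transcription factors Blimp-1, encoded by Prdm1, and XBP1, and antibody chains are translocated into it, folded, paired by disulfide bonds and, when misfolded, sent back to the cytosol for degradation. Much of the same machinery is induced in any cell by the unfolded protein response, in which sensors in the ER membrane activate the factors XBP1, ATF6 and ATF4, and most of these genes are therefore also active in cells other than plasma cells.

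The GEO fields contradict each other on strain. In each of the 6 samples, the title and strain entry give one strain, and the description and table column give the other. Groups here follow the description and column, so every direction below turns around if the titles are right. Total counts ran from 15662712 to 18298451 per library. Ifi202b, an interferon-inducible gene known to differ between NOD and C57BL strains, was read 838, 624 and 485 times in NOD.B10 and 2, 0 and 0 times in BL/10. The libraries also differed in markers of other cells. The summed level of 25 pancreas acinar genes, led by Cela1, Cpb1 and Ctrb1, was 16659, 2514 and 124 CPM (counts after correction for library size with the TMM factors of edgeR) in BL/10 replicates 1, 2 and 3 and between 48.4 and 59.2 CPM in NOD.B10. Of the tested markers, 13 of 15 T cell genes were called higher and 11 of 12 neutrophil genes lower in NOD.B10, with none called the other way. The part of the T cell and neutrophil differences in the results below was not tested. For the acinar genes, a fit with their level as a covariate is given below, but this level partly follows strain. Counts from a whole spleen cannot tell more plasma cells from more RNA per plasma cell.

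Of the 45 genes, 10 were called higher in NOD.B10 spleens and 0 lower, by the quasi-likelihood test of edgeR with a threshold of 0.05 on the Benjamini-Hochberg adjusted p. Over all 15330 genes tested, 17.3% were called, 9.11% as higher and 8.22% as lower, against 22.2% of the 45 genes. The called genes were Prdm1, Xbp1, Sdc1, Mzb1, Hyou1, Dnajb9, Dnajc3, Creld2, Edem1 and Edem2. At an unadjusted p under 0.05 there were 21 higher and 3 lower genes of the 45, beside 17.2% and 17.0% of all genes tested (34.2% in either direction). DESeq2 called 14 genes higher and 1 lower, Pdia4, beside 8.53% of all its tested genes as higher and 17.6% in either direction. The median log2 fold change of the 45 genes was 0.16, beside 0.0006 over all genes, and 36 of the 45 had a value above 0. The strains did not overlap in 23 genes, beside 38.0% of all genes tested. In 19 of them (42.2% of the 45) all NOD.B10 libraries lay above all BL/10 libraries and in 4 (8.89%) they lay below, beside 20.5% and 17.5% of all genes tested. The summed level of the 45 genes was 7727, 8269 and 8874 CPM in NOD.B10 and 7464, 7439 and 7076 CPM in BL/10, so the libraries did not overlap.

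**Figure D1:**
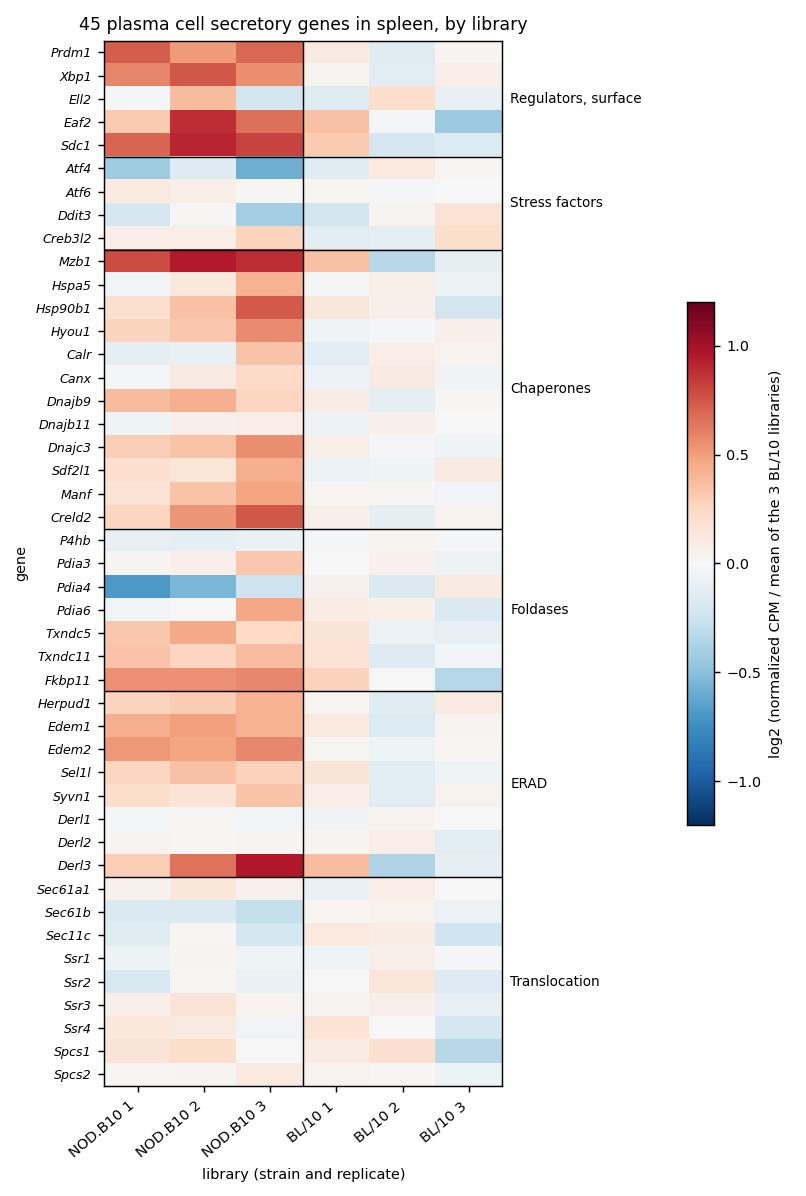
Each row is a gene and each column a library, and the color gives the log2 ratio of the gene's normalized CPM to the mean of the 3 BL/10 libraries, with ERAD for ER-associated degradation. The rows of Prdm1, Xbp1, Sdc1, Mzb1, Creld2, Edem2 and Fkbp11 are red in all 3 NOD.B10 libraries, while those of Dnajb11, Derl1, Derl2 and most translocation genes are near white.

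The regulators and the surface marker of plasma cells came first. Of the 5 genes, 3 were higher in NOD.B10 (60%, beside 9.11% of all genes tested). Prdm1 (ENSMUSG00000038151, chromosome 10 from 44437177 to 44528501 of GRCm38, minus strand), whose product represses the B cell program, had 19.6, 16.8 and 19.0 CPM in NOD.B10 and 12.7, 10.7 and 12.0 CPM in BL/10. Every NOD.B10 library was above every BL/10 library. The log2 fold change was 0.64 with a standard error (SE) of 0.12, and the adjusted p was 0.00968 from edgeR.

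Xbp1 (ENSMUSG00000020484, chromosome 11 from 5520659 to 5525893, plus strand), which drives the growth of the secretory apparatus, had 251, 281 and 247 CPM in NOD.B10 and 172, 153 and 177 CPM in BL/10. The strains did not overlap, and the gene was 1.55-fold higher (log2 fold change 0.63, SE 0.11, adjusted p in edgeR 0.00686). The counts are summed over the exons of a gene, so the spliced, active form of Xbp1 RNA could not be separated from the unspliced form.

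Sdc1 (ENSMUSG00000020592, chromosome 12 from 8771323 to 8793715, plus strand) encodes syndecan-1 (CD138), the surface proteoglycan by which plasma cells are commonly recognized. It had 30.7, 35.7 and 33.1 CPM in NOD.B10 and 23.5, 16.4 and 16.8 CPM in BL/10, with BL/10 replicate 1 the highest of its strain and still below all NOD.B10 libraries. This was a 1.75-fold difference (log2 fold change 0.81, SE 0.15, adjusted p = 0.0114 from edgeR). The remaining regulators did not pass. Eaf2, which binds elongation factors of the ELL family, had 10.3, 15.4 and 13.2 CPM in NOD.B10 and 10.6, 8.25 and 6.14 CPM in BL/10, and the strains overlapped through BL/10 replicate 1 (log2 fold change 0.64, adjusted p = 0.09 from edgeR). Ell2, the elongation factor that favors secretory over membrane immunoglobulin mRNA, had a log2 fold change of 0.07, with a 95% interval from -0.32 to 0.46.

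None of the 4 transcription factors of the stress response was called in either direction, 1 of them, Atf4, had an unadjusted p under 0.05, and DESeq2 called 0. Over all genes tested these shares were 17.3%, 34.2% and 17.6%. Atf4, the factor of the integrated stress response, had 206, 248 and 184 CPM in NOD.B10 and 249, 301 and 280 CPM in BL/10. All 3 NOD.B10 values were below the BL/10 values, with NOD.B10 replicate 2 just under BL/10 replicate 1 (log2 fold change -0.38, SE 0.14, adjusted p = 0.0941 from edgeR). Ddit3, which encodes the death-promoting factor CHOP, had a log2 fold change of -0.19 with a 95% interval from -0.52 to 0.15, and its libraries overlapped. Atf6, the membrane-bound factor released by cleavage, had the value 0.07 (interval -0.11 to 0.25), and Creb3l2, a related membrane-bound factor, 0.14 (interval -0.13 to 0.42).

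**Figure D2:**
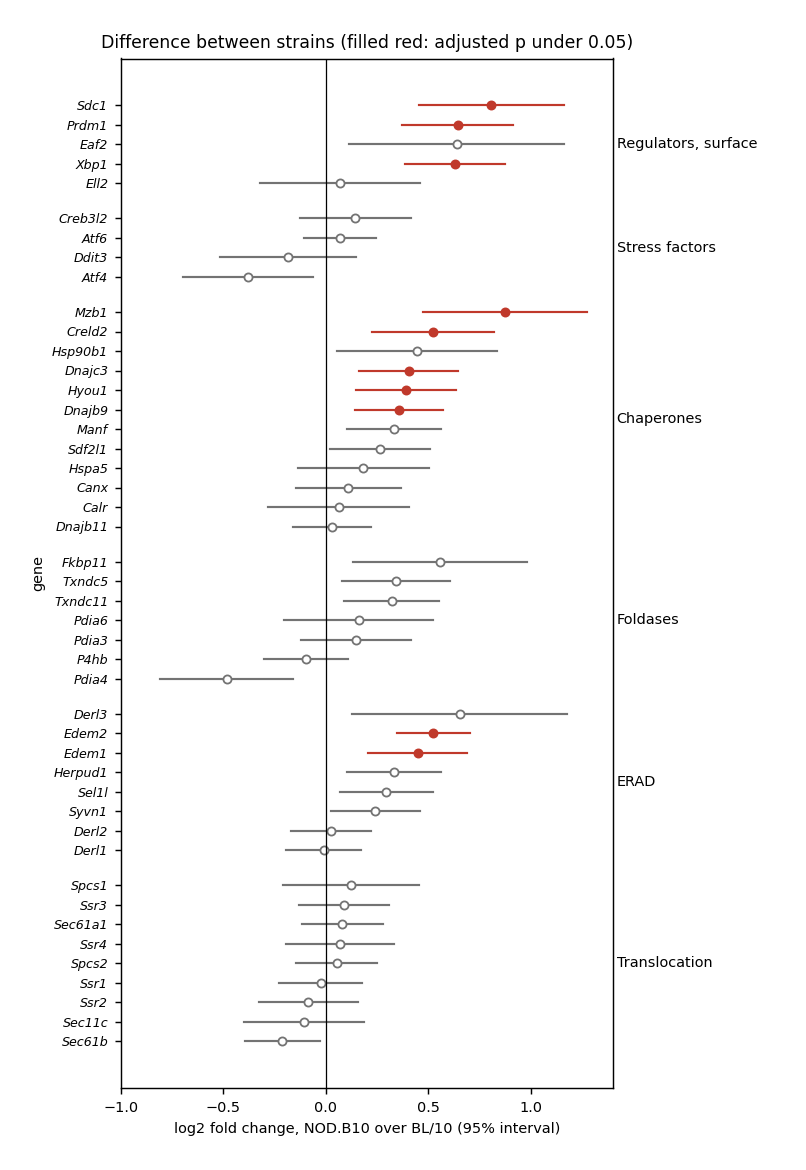
Points are log2 fold changes of NOD.B10 over BL/10 from edgeR, bars are 95% intervals, and genes are grouped by role and sorted within each group. The 10 called genes, filled in red, lie between 0.36 and 0.87, and the 9 translocation genes lie between -0.21 and 0.12.

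Chaperones and their helpers, the largest group, held the largest number of called genes. Of the 12, 5 were higher (41.7%, beside 9.11% of all genes tested) and none lower. All 12 log2 fold changes were above 0, from 0.03 to 0.87. Mzb1 (ENSMUSG00000024353), a cofactor of GRP94 that is largely restricted to B lineage cells and aids the assembly of IgM, had 295, 330 and 315 CPM in NOD.B10 and 218, 136 and 159 CPM in BL/10. The strains did not overlap, and Mzb1 had the highest fold of the 45 genes, 1.83-fold (log2 fold change 0.87, SE 0.17, adjusted p = 0.0137 from edgeR). Creld2, an ER stress-inducible protein of the disulfide machinery, had 56.8, 68.5 and 79.2 CPM in NOD.B10 and 49.5, 44.0 and 48.6 CPM in BL/10 (log2 fold change 0.52, SE 0.13, adjusted p = 0.0302 from edgeR). Its NOD.B10 values spread widely, but none of them reached down to BL/10.

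The other called chaperone genes had smaller differences. Dnajc3, a cochaperone of BiP, had 195, 201 and 234 CPM in NOD.B10 and 166, 157 and 152 CPM in BL/10 (log2 fold change 0.41, adjusted p = 0.0352 from edgeR). Hyou1, an ER relative of the Hsp70 chaperones and exchange factor of BiP, had 127, 132 and 157 CPM against 102, 104 and 110 CPM (log2 fold change 0.39, adjusted p = 0.0396). Dnajb9, a cochaperone that restrains the stress sensor IRE1, had 48.6, 50.3 and 44.4 CPM against 39.7, 34.4 and 37.6 CPM (log2 fold change 0.36, adjusted p = 0.0367). In all 3 genes the strains did not overlap, and the difference was under 1.5-fold.

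The abundant general chaperones were not called. Hspa5 (ENSMUSG00000026864, chromosome 2 from 34771970 to 34777547, plus strand), which encodes BiP, the central chaperone of the ER, had 683, 763 and 931 CPM in NOD.B10 and 688, 733 and 671 CPM in BL/10. NOD.B10 replicate 1 lay within the BL/10 range and replicate 3 stood far above it. The log2 fold change was 0.18, with a 95% interval from -0.13 to 0.50. Hsp90b1, which encodes GRP94, had 685, 763 and 994 CPM in NOD.B10 and 656, 623 and 515 CPM in BL/10. Its strains did not overlap, but the adjusted p was 0.107 in edgeR (log2 fold change 0.44, SE 0.17), and 632 of its 4032 exon bases are shared with overlapping genes. The lectin chaperones Calr and Canx, which hold glycoproteins during folding, had log2 fold changes of 0.06 (interval -0.28 to 0.41) and 0.11 (interval -0.14 to 0.37). Manf and Sdf2l1, which are ER stress-inducible proteins, had values of 0.33 and 0.27 with adjusted p of 0.0544 and 0.119 in edgeR, and neither gene's strains overlapped. For Dnajb11, another BiP cochaperone, the value was 0.03 (interval -0.16 to 0.22).

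**Figure D3:**
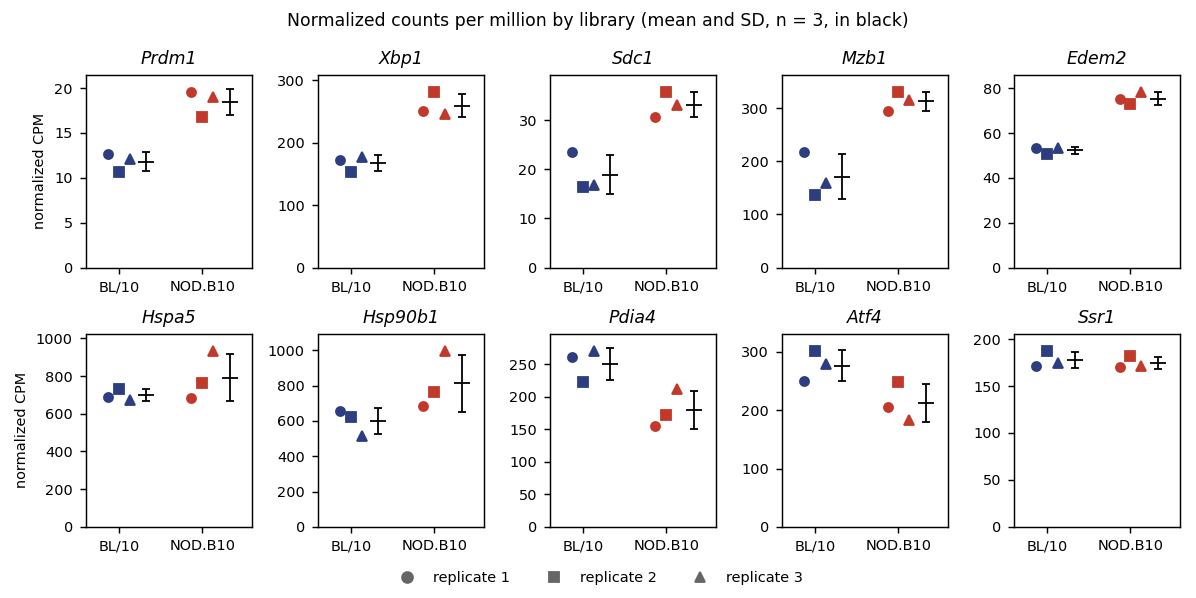
Normalized CPM of 10 genes in each library, with BL/10 in blue, NOD.B10 in red, a marker shape for each replicate, and the mean and SD (n = 3) in black. Prdm1, Xbp1, Sdc1, Mzb1 and Edem2 do not overlap between strains, Hspa5 and Ssr1 do, and Pdia4 and Atf4 lie lower in NOD.B10.

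The genes were also compared by the sequence before their start, because the unfolded protein response acts through short promoter elements. RefSeq windows (build GRCm38.p6) were at hand for 37 of the 45 genes, and the 250 bases before each start were searched on both strands for the ER stress element (ERSE, CCAAT and CCACG separated by 9 bases of any kind). An exact match was present in 9 of the 37 genes (24.3%), and in 35 of 27025 genes with a window (0.13%). The 35 include the 9. The 45 genes were listed as secretory and unfolded protein genes, so a higher share was built into the choice of list. It is not a result of these libraries. The CCAAT box alone, which is part of the ERSE, was found in 29 of the 37 genes (78.4%) and in 37.5% of all genes. The ERSE matches, read in the direction from CCAAT to CCACG with the fixed letters in capitals, are shown because the 9 genes share these letters but differ in the spacer.
Hspa5: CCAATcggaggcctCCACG
Hsp90b1, distal: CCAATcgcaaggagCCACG
Hsp90b1, proximal: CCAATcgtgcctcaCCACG
Creld2: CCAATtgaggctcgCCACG
Dnajc3: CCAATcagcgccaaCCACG
Derl3: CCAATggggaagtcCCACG
Calr: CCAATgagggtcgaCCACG
Canx: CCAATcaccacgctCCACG
Pdia6: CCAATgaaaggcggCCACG
Syvn1: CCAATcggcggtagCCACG

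Among the 9 genes with an ERSE, 2 were called higher (Creld2 and Dnajc3), beside 9.11% of all genes tested. All 9 log2 fold changes were above 0, with a median of 0.24. Among the 28 genes with a window and no exact match, 6 were called higher, 22 log2 fold changes were above 0, and the median was 0.15. The difference between these groups was not tested. Of the 26 other genes with an ERSE in the window, 7 were tested in spleen and 0 were called. For Alg12, a mannosyltransferase gene whose window shares 173 bases with that of Creld2, the log2 fold change was 0.31 (adjusted p = 0.173 from edgeR). A match to the related ERSE-II (ATTGG and CCACG separated by 1 base) was present in Herpud1, and the UPR element (UPRE, TGACGTGG) in Txndc5 and Txndc11, beside 0.037% and 0.603% of all genes with a window. The windows of Prdm1, Xbp1, Sdc1 and Edem2 held none of these 3 sequences. An element that crosses the start was missed by this search. The Herpud1 stretch ends in ccaatggatggcagccac, which lacks only the last letter of an ERSE, and was counted as having no match.

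The upstream sequences of 4 genes are given to show the surroundings of the element in both called and uncalled chaperone genes, with ERSE letters in capitals as they appear on the strand of the gene, so that an element on the opposite strand reads CGTGG to ATTGG.
Hspa5, chr2:34771840-34772089 of GRCm38.p6, plus strand: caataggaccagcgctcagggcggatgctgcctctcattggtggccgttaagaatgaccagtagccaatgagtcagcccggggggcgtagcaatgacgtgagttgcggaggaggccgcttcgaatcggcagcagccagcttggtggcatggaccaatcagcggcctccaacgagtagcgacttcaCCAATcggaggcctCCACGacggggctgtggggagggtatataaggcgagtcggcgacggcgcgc
Hsp90b1, chr10:86705445-86705694 of GRCm38.p6, minus strand: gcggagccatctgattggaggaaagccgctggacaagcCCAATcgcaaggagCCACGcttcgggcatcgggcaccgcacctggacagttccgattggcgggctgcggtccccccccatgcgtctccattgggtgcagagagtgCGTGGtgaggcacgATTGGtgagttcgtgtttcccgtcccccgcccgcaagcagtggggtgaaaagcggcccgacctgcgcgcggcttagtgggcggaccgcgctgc
Creld2, chr15:88819396-88819645 of GRCm38.p6, plus strand: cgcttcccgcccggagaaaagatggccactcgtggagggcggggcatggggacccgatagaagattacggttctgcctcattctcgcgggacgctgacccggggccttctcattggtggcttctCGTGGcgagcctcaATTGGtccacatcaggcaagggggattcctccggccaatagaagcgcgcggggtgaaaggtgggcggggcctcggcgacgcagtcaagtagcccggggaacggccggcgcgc
Dnajc3, chr14:118937682-118937931 of GRCm38.p6, plus strand: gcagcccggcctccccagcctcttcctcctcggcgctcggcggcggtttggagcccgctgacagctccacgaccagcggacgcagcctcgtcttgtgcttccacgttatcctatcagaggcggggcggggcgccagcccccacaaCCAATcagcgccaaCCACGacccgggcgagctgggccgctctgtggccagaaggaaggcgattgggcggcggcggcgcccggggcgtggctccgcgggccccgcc

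**Figure D4:**
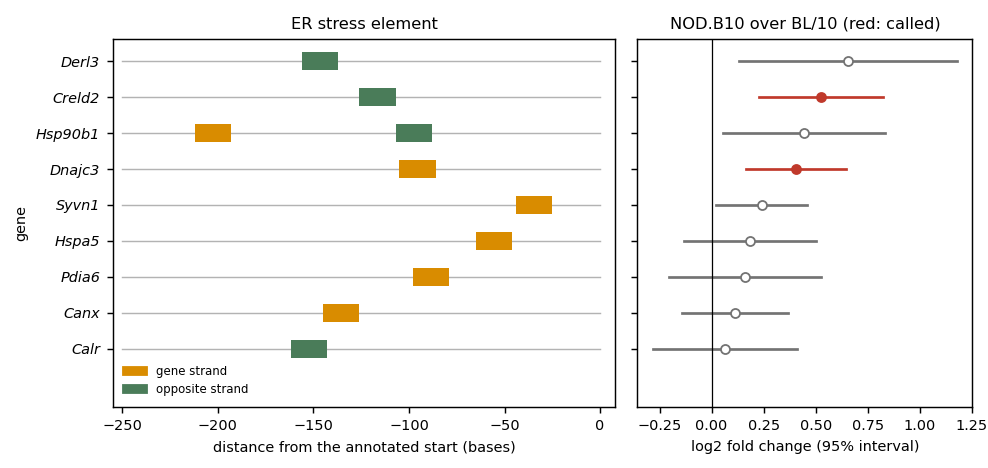
The left panel shows the position of the ERSE relative to the annotated start in the 9 genes that hold it, colored by strand, and the right panel the log2 fold change of NOD.B10 over BL/10 with its 95% interval. Creld2 and Dnajc3, in red, were called, and Hspa5, Calr, Canx and Pdia6 have intervals that include 0.

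Of the 7 disulfide isomerases and other foldases, 0 were called by edgeR, 4 had an unadjusted p under 0.05, and DESeq2 called 2. Over all genes tested these shares were 17.3%, 34.2% and 17.6%. The 7 genes did not point the same way. Pdia4, a thiol isomerase, had 156, 172 and 211 CPM in NOD.B10 and 261, 223 and 270 CPM in BL/10. All NOD.B10 libraries were lower, and the gene lay just outside the threshold (log2 fold change -0.48, SE 0.14, adjusted p = 0.0516 from edgeR). Its value in BL/10 replicate 1, the library with the most acinar RNA, was between those of the other BL/10 libraries. Every BL/10 library had more acinar RNA than every NOD.B10 library, and a part of this RNA in the difference was not tested. P4hb, the archetypal protein disulfide isomerase, had a log2 fold change of -0.10 (interval -0.30 to 0.11) although its strains did not overlap.

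On the other side were Txndc5 and Fkbp11, a thioredoxin-domain isomerase and a prolyl isomerase that are abundant in plasma cells. Txndc5 had 323, 354 and 304 CPM in NOD.B10 and 287, 246 and 241 CPM in BL/10 (log2 fold change 0.34, adjusted p = 0.0777 from edgeR). Fkbp11 was read at a low level, with 6.88, 6.88 and 7.02 CPM against 5.70, 4.69 and 3.69 CPM (log2 fold change 0.56, adjusted p = 0.0735). Txndc11, another thioredoxin-domain gene, had a log2 fold change of 0.32 (adjusted p = 0.0632). None of the 3 overlapped between strains. Pdia3, which works with the lectin chaperones, and Pdia6 had values of 0.15 and 0.16 with overlapping libraries, and in Pdia6 only NOD.B10 replicate 3, at 301 CPM, was above the BL/10 range of 194 to 232 CPM.

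Among the 8 genes of ER-associated degradation (ERAD), 2 were higher in NOD.B10 (25%, beside 9.11% of all genes tested) and none lower. Both encode mannosidase-like proteins that mark misfolded glycoproteins. Edem2 (ENSMUSG00000038312, chromosome 2 from 155701677 to 155729475, minus strand) had 75.1, 72.8 and 78.3 CPM in NOD.B10 and 53.2, 50.6 and 53.2 CPM in BL/10. The spread within each strain was small, and Edem2 had the smallest adjusted p of the 45 genes (log2 fold change 0.53, SE 0.08, adjusted p = 0.0038 from edgeR). Edem1 had 244, 254 and 240 CPM against 195, 161 and 185 CPM (log2 fold change 0.45, SE 0.10, adjusted p = 0.0249), also without overlap.

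The other genes of this group were not called. Herpud1, Sel1l and Syvn1, which belong to the complex of the ubiquitin ligase HRD1, had log2 fold changes of 0.33, 0.30 and 0.24 with adjusted p of 0.0542, 0.077 and 0.114 in edgeR, and in all 3 every NOD.B10 library was above every BL/10 library. The derlins, which form part of the channel out of the ER, differed among themselves. Derl3, the derlin of secretory cells, had 15.8, 20.3 and 25.1 CPM in NOD.B10 and 16.7, 10.1 and 12.0 CPM in BL/10. BL/10 replicate 1 lay above the lowest NOD.B10 library, and the difference did not pass (log2 fold change 0.65, SE 0.23, adjusted p = 0.0851). The widely expressed Derl1 and Derl2 had values of -0.01 (interval -0.19 to 0.17) and 0.02 (interval -0.17 to 0.22).

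The 9 genes of translocation and signal peptide cleavage gave no call in either direction in edgeR or in DESeq2, and 1 of them, Sec61b, had an unadjusted p under 0.05. Over all genes tested these shares were 17.3%, 17.6% and 34.2%. The log2 fold changes of the 9 genes lay between -0.21 and 0.12, and their SEs between 0.08 and 0.14. For Sec61a1, the pore of the translocon, the libraries held 144, 153 and 144 CPM in NOD.B10 and 132, 147 and 138 CPM in BL/10, with an interval of the log2 fold change from -0.12 to 0.28. Sec61b, a small subunit of the same channel, had 68.3, 68.4 and 63.5 CPM against 78.6, 79.8 and 73.4 CPM. All NOD.B10 libraries were below the BL/10 libraries, at a log2 fold change of -0.21 (interval -0.40 to -0.03, adjusted p = 0.105). The translocon-associated proteins encoded by Ssr1, Ssr2, Ssr3 and Ssr4 had values of -0.03, -0.09, 0.09 and 0.07, and the signal peptidase genes Spcs1, Spcs2 and Sec11c 0.12, 0.05 and -0.11. All of these overlapped between strains. The widest of the 9 intervals on the upper side, that of Spcs1, ended at 0.46, and 17.9% of the exon bases of Spcs1 are shared with overlapping genes.

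Levels of the genes were compared with each other per length, as TPM (counts divided by exon length and scaled to a common total). Mzb1 had the highest mean of the 45 genes, at 823 ± 48.0 TPM (SD, n = 3) in NOD.B10 and 429 ± 116 TPM (SD, n = 3) in BL/10. In BL/10 this level was within its spread of those of Calr (398 ± 20.9 TPM) and Hspa5 (373 ± 12.8 TPM), while in NOD.B10 the next genes were Hsp90b1 (482 ± 113 TPM), Hspa5 (447 ± 86.6 TPM) and Calr (439 ± 99.2 TPM), all SD with n = 3, whose spreads overlap. The regulators were far lower, with 190 ± 8.24 TPM for Xbp1 but 8.01 ± 0.857 TPM for Prdm1 and 7.05 ± 1.30 TPM for Eaf2 in NOD.B10 (SD, n = 3). Sdc1 stood at 20.7 ± 1.43 TPM in NOD.B10 and 11.3 ± 2.62 TPM in BL/10 (SD, n = 3). The called genes thus ran from nearly the lowest level of the list to the highest.

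The libraries of a strain were not alike for the chaperones. NOD.B10 replicate 3 had the highest value of the 6 libraries in 10 of the 12 chaperone genes, 4 of the 7 foldases and 4 of the 8 degradation genes, but in 0 of the 5 regulators and surface genes, of which 4 were highest in NOD.B10 replicate 2. The summed level of the 12 chaperones was 3160, 3436 and 4107 CPM in NOD.B10 replicates 1, 2 and 3, and 2952, 2989 and 2798 CPM in BL/10. Without NOD.B10 replicate 3, 4 of the 10 higher genes were still called (Prdm1, Xbp1, Sdc1 and Edem2), Pdia4 was called lower, and the log2 fold change of Calr was -0.10.

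These same 4 genes, Prdm1, Xbp1, Sdc1 and Edem2, were called in all 6 fits that left out a single library, and Mzb1 in 4 of the 6. The largest adjusted p in these edgeR fits was 0.0312 for Xbp1 and 0.0254 for Edem2. It was 0.0491 for Prdm1, 0.0498 for Sdc1 and 0.0588 for Mzb1, all close to the threshold of 0.05. The other called genes mostly lost their call with a library fewer, with Hyou1 called in 0, Dnajb9, Dnajc3 and Edem1 in 1 and Creld2 in 2 of the 6 fits. Their log2 fold changes stayed above 0 in every fit, from 0.30 to 0.45 for Hyou1, 0.30 to 0.41 for Dnajb9, 0.32 to 0.46 for Dnajc3, 0.37 to 0.50 for Edem1 and 0.41 to 0.64 for Creld2. BL/10 replicate 1 was the library with the most acinar RNA and also the single BL/10 library labelled 26 weeks. Without it, strain and age cannot be told apart at all. In that fit 15 of the 45 genes were called, all higher, beside 26.3% of all genes tested (12.3% as higher). These included Eaf2, Derl3, Txndc5, Txndc11, Fkbp11 and Sel1l. The count was 6 without NOD.B10 replicate 1, 5 without NOD.B10 replicate 2 or 3 or BL/10 replicate 2, and 4 without BL/10 replicate 3. All genes were called, in either direction, at 8.12%, 12.9%, 8.95%, 10.1% and 11.2% without NOD.B10 replicates 1, 2 and 3 and BL/10 replicates 2 and 3. The share of the 45 genes was near these, except above it without NOD.B10 replicate 1. Apart from Pdia4 without NOD.B10 replicate 3, the genes of the 45 called in these 5 fits were all higher. With the acinar level as a covariate, 3 genes were called (Sdc1, Mzb1 and Fkbp11) beside 7.61% of all genes (3.58% as higher), and the log2 fold changes of Sdc1 and Mzb1 were 1.13 and 1.16. Prdm1, Xbp1 and Edem2 were not called in that fit, at log2 fold changes of 0.68, 0.58 and 0.52 and adjusted p of 0.0802, 0.0806 and 0.0583 in edgeR. Their SEs were 0.20, 0.17 and 0.13 there, beside 0.12, 0.11 and 0.08 without the covariate. The acinar sum was higher in every BL/10 library than in every NOD.B10 library, so this covariate partly follows strain.

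Strain and age cannot be told apart in these libraries except through BL/10 replicate 1, the single BL/10 library labelled 26 weeks. With age as a covariate, 1 of the 45 genes was called, Edem2, beside 6.15% of all genes tested (2.82% as higher). The log2 fold changes under that model were 0.54 for Prdm1, 0.60 for Xbp1, 0.50 for Sdc1, 0.52 for Mzb1 and 0.50 for Edem2, with adjusted p between 0.0437 and 0.126 in edgeR.

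Genes of the same pathways outside the list were counted in lists drawn up from general knowledge. In 148 tested genes of stress sensing, ATF4 targets, further chaperones, degradation, translocation and vesicle transport, 8 were higher and 7 lower. This was 10.1%, beside 17.3% of all genes tested, and the median log2 fold change was 0.02. Of the 9 stress sensor genes none was called, with 1 at an unadjusted p under 0.05 and 0 in DESeq2. Among 17 targets of ATF4 and CHOP, 2 were higher and 2 lower. Of the 17 log2 fold changes, 5 were above 0 and 12 below, with a median of -0.23. Trib3, a pseudokinase induced by CHOP, had 5.86, 6.63 and 7.02 CPM in NOD.B10 and 2.66, 2.21 and 2.10 CPM in BL/10 (log2 fold change 1.48, adjusted p = 0.00161 from edgeR). Chac1, which degrades glutathione, was also higher (log2 fold change 0.77, adjusted p = 0.0294). Atf3, a stress-inducible factor, fell by 0.94 on the log2 scale (adjusted p = 0.0176), and Psat1, of serine synthesis, by 0.46 (adjusted p = 0.0221).

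In the further chaperones and foldases, 3 of 28 genes were higher and 2 lower, among them Txndc12, a thioredoxin-domain protein of the ER, and Cnpy3, a GRP94 cofactor for Toll-like receptors (log2 fold changes 0.77 and 0.44, adjusted p = 0.0026 and 0.0191 from edgeR). Clgn, a calnexin relative known from the testis, was read 2, 3 and 2 times in NOD.B10 and 37, 60 and 48 times in BL/10, and Rcn2, a calcium-binding protein, was lower by a log2 fold change of -0.43 (adjusted p = 0.0305). In the further degradation list 1 of 23 genes was called, Ube2j2, a ubiquitin-conjugating enzyme (log2 fold change -0.35, adjusted p = 0.0446). In the further translocation list, 1 of 33 genes was higher, Tram2, and 1 lower, the signal recognition particle gene Srp9 (log2 fold changes 0.81 and -1.01, adjusted p = 0.00187 and 0.00288). In vesicle transport, 2 of 39 genes were higher, Mia3 and Sec24b, and 1 lower, Tmed2, with log2 fold changes of 0.36, 0.29 and -0.52 (adjusted p = 0.0326, 0.0382 and 0.0106).

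Other genes of plasma cells were set beside these. Of 28 tested, 7 were higher and 3 lower (35.7%, beside 17.3% of all genes tested). Jchain, which joins IgM and IgA into polymers, had 2626, 3049.6 and 2964 CPM in NOD.B10 and 2156, 2023 and 1665 CPM in BL/10 (log2 fold change 0.56, adjusted p = 0.0345 from edgeR), and Irf4, a factor required for plasma cells, had a log2 fold change of 0.53 (adjusted p = 0.0431). Tnfrsf17, the survival receptor BCMA of long-lived plasma cells, had 3.47, 5.28 and 5.28 CPM in NOD.B10 and 5.21, 6.10 and 5.57 CPM in BL/10 and was not called (log2 fold change -0.26, adjusted p = 0.387). The genes with the smallest p in each direction included some known from other cells. Cd28, a costimulatory receptor of T cells, and Chst1, a sulfotransferase, were higher (log2 fold changes 1.32 and 0.79, adjusted p = 0.00223 and 0.0052), and Prg2, a granule protein of eosinophils, and Ly6d, also found on B lineage cells and plasmacytoid dendritic cells, were lower (-3.01 and -1.80, adjusted p = 0.000327 and 0.00319).

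Of 12 genes for the constant regions of immunoglobulin, 3 were called, all of them higher (25%, beside 17.3% of all genes tested). These were Ighm, Ighg2c and Igkc, with log2 fold changes of 0.86, 2.04 and 0.87 (adjusted p = 0.0177, 0.00538 and 0.0118 from edgeR). Of the 12 log2 fold changes, 8 were above 0 and 4 below. The summed level of all 12 genes was 28421, 34133 and 32038 CPM in NOD.B10 and 21598, 16300 and 18797 CPM in BL/10. Of 12 B cell markers 0 were called, with 2 at an unadjusted p under 0.05 and 1 called by DESeq2. All 12 log2 fold changes were above 0, with a median of 0.28 beside 0.16 for the 45 genes, and the part of this shift in the members' values was not tested. The sum of the 12 markers was 5140, 4419 and 5714 CPM in NOD.B10 replicates 1, 2 and 3. It was 5853, 3321 and 3619 CPM in BL/10 replicates 1, 2 and 3, so the strains overlapped only through BL/10 replicate 1. Of the 16 B cell identity genes that plasma cells switch off, such as Pax5 and Bach2, 0 were called, with 4 at an unadjusted p under 0.05 and 3 called by DESeq2, and 14 of the 16 log2 fold changes were above 0. Of 15 proliferation genes 1 was called, and it was lower, while all 15 log2 fold changes were below 0, with a median of -0.63. Their sum ran from 2815 to 4325 CPM in NOD.B10 and from 3516 to 6886 CPM in BL/10, so the strains overlapped.

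**Figure D5:**
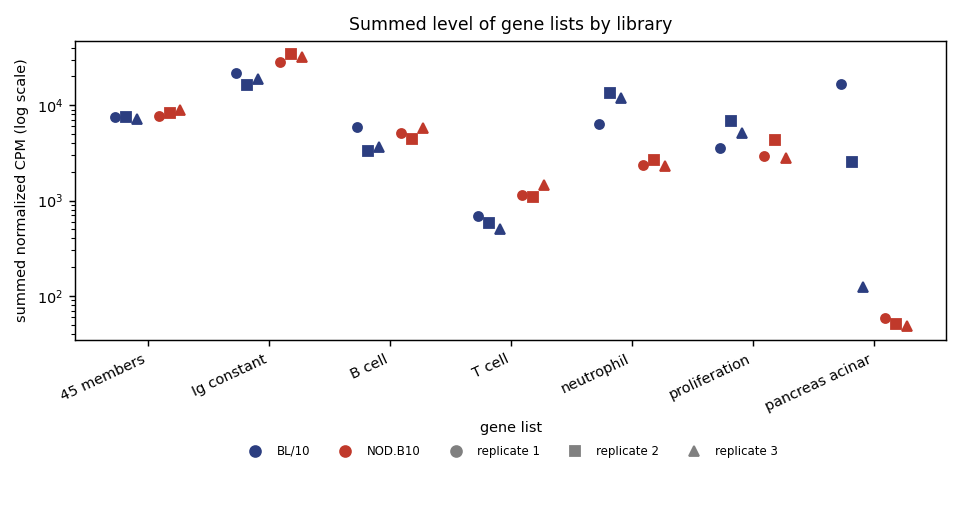
Summed normalized CPM of 7 gene lists in each library on a log axis, with BL/10 in blue, NOD.B10 in red and a marker shape for each replicate. The 45 genes and the immunoglobulin constant regions do not overlap between strains, the B cell list does, and the pancreas acinar list is highest in BL/10 replicate 1.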

How the data were processed

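RNA of whole spleens was sequenced by the authors as 50-base single reads. The authors deposited unnormalized read counts for every gene, obtained with featureCounts (1.5.1) from exons in Ensembl release 84 (GRCm38). The header sets no option for strand or for reads that map to several places, so the tool's defaults, which ignore strand and leave such reads out, applied. Per the paper reads were mapped with Tophat2, and the submitters' processing notes name HISAT2 version 2.0.5. Gene lengths in the table were used for TPM. Symbols came from GENCODE M21, with 47224 of 47729 identifiers matched. Libraries of Myd88-deficient mice, which the header lists, are not analysed here.

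Strain was taken from the sample descriptions and columns, against the titles. Genes passing filterByExpr (15330) were normalized by TMM and compared between strains with edgeR version 4.0.16 (R version 4.3.3), with Benjamini-Hochberg adjustment over all of them. Standard errors and intervals came from the F statistic and its degrees of freedom. DESeq2 version 1.42.0 and limma version 3.58.1 served as alternatives. No pair of replicates looked like 1 library deposited 2 times, since the lowest chi-square per degree of freedom within a strain was 13.4. Members, lists and alternatives were chosen with earlier results of these data known. In the further lists, up to 2 called genes each way with the smallest p were named, with Jchain, Irf4, Tnfrsf17, Ifi202b and the constant regions fixed by name. The fit was tested on simulated counts.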

Additional observations from a re-analysis of the deposited data

How the results depend on the processing

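The 10 genes called were between 9 and 11 with RLE or upper-quartile normalization, another library size, other filters or the replicate block, and 15 with DESeq2 or limma-voom. They were 3 at an adjusted p under 0.01 (with 1035 of all genes and 9 of the other pathway genes), 3 with the acinar covariate (1167 and 12) and 1 with the age covariate (943 and 11). Leaving out each replicate gave 4 to 15 genes, 0 to 1 of them lower, with 1269 to 4107 of all genes, 10 to 48 of the other pathway genes, and a median log2 fold change of the members between 0.15 and 0.25. A lower gene, 1 each time, was found with DESeq2, RLE, at least 1 count, limma-voom and the replicate block, which called 11 genes (9 of the 10, with Herpud1 and Pdia4 added) and 2889 overall. The replicate numbers did not pair the libraries, since the deviations of same-numbered libraries correlated at 0.032, 0.172 and -0.084. The cause was not tested.

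None of the 10 called genes changed direction in these settings. Genes near 0 did. The log2 fold change became 0.018 for Derl1 and 0.0031 for Ssr1 with upper-quartile normalization, and -0.020 for Calr with limma-voom. With the acinar covariate it was -0.10 for Creb3l2, -0.052 for Calr, -0.013 for Dnajb11, 0.17 for Sec11c and 0.038 for Ssr2. With the age covariate it was 0.033 for Ddit3, 0.028 for Derl1, -0.010 for Derl2, 0.028 for Ssr1 and -0.098 for Ssr4. Without single replicates it ran from -0.11 to 0.20 for Ell2, -0.099 to 0.14 for Calr, -0.016 to 0.25 for Pdia6, -0.037 to 0.0091 for Derl1, -0.012 to 0.070 for Dnajb11, -0.060 to 0.011 for Ssr1, -0.040 to 0.065 for Derl2, -0.027 to 0.16 for Ssr4 and -0.022 to 0.23 for Spcs1. Exon bases shared with other genes could not be assigned by strand.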
